A study of Eriocheir sinensis with 6 samples.

Results

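The regions described here are places of open chromatin that all 3 muscle libraries shared and that lay far from every gene model in the Chinese mitten crab (Eriocheir sinensis). To find them, the peak intervals of the 3 libraries were merged where they overlapped by at least 1 bp, and the merged regions touched by all 3 libraries were kept. Members had to lie on a chromosome-scale sequence (a name beginning with CM) and over 20 kb from every gene body, annotated or added. Of 68059 merged regions, 29787 were found in all 3 libraries, 22674 of these lay on the CM sequences, and 4623 were members (20.4% of the 22674). The other 18051 shared regions on the CM sequences lay within 20 kb of a gene body. The rule used position and presence in all 3 libraries, and set no threshold on peak height, width or gene expression. Presence in all 3 libraries was not independent of height, however. In the lowest of 4 equal groups by fold enrichment, 25.2%, 40.2% and 27.4% of the far regions of libraries 1, 2 and 3 were shared. In the highest group, 91.9%, 92.1% and 94.2% were. Nearer regions also were shared more often in the highest group than in the lowest.

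The samples were walking-leg muscle of 3 untreated wild-type crabs, all juvenile males, taken while molting (period E in the sample titles, although the design text gives stage D). Each crab gave a library for ATAC-seq and another for RNA-seq. There was 1 condition, so no treatment was compared and the 3 libraries of each assay are the replicates. The gene identifiers carry no names for muscle markers in the sources used here, and the tissue label was therefore not checked against markers. Fewer open cells and less open chromatin per cell cannot be told apart in these bulk libraries.

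In ATAC-seq, a transposase cuts DNA that is not packed on nucleosomes, and sites that are cut more often than their surroundings are called as peaks. Peaks at transcription starts usually mark promoters. Peaks far from genes can mark enhancers, silencers, insulators, replication origins or genes missing from the annotation, and openness alone does not tell these apart. An enhancer can act on a gene that is not the nearest one, so the nearest genes named here are neighbours by position only. No sequence is printed, since no genome of the build used by the files was given.

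The deposited lists held 52473, 44610 and 49831 peak intervals in ATAC-seq libraries 1, 2 and 3. On the CM sequences, 8787 (22.0%), 7513 (21.6%) and 8218 (21.2%) of the intervals lay over 20 kb from every gene body. The lists give no reads per peak, so the depth behind each peak is unknown here. The paper gives mapped reads per library, which were not used here. The fewest were in ATAC-seq library 2, which also had the fewest peaks. The RNA-seq libraries held 7088747, 7524721 and 7788537 fragments in genes, as worked back from the FPKM. Of the merged regions that lay over 20 kb from genes on the CM sequences in any library, 12005 in all, 38.5% were shared by the 3 libraries, against 43.4% of the nearer ones. Among the regions that a library had, the shared part was lower for the far ones in each library, at 54.5%, 64.3% and 57.4% for far regions in libraries 1, 2 and 3, against 60.5%, 69.7% and 60.3% for nearer regions. The difference averaged -4.80 ± 1.62 percentage points (SD, n = 3). When each library's regions were split into 4 equal groups by fold enrichment, the far regions were shared less often in every group, from -0.210 points in the lowest group of library 3 to -10.9 points in the third group of library 1.

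Open regions thinned out with distance from genes, and this held well beyond the 20 kb border. Shared regions numbered 52.7 per Mb within 2 kb outside a gene body, 23.6 per Mb inside gene bodies, 16.6 per Mb at 10 to 20 kb, 14.9 per Mb at 20 to 30 kb, 12.3 per Mb at 30 to 50 kb, 10.7 per Mb at 50 to 100 kb, 9.45 per Mb at 100 to 200 kb and 8.17 per Mb beyond 200 kb. The peak lists of the single libraries fell in the same order, with 28.0, 23.9 and 25.9 peaks per Mb at 20 to 30 kb in libraries 1, 2 and 3, and 14.5, 13.8 and 13.9 peaks per Mb beyond 200 kb. The gene-free space over 20 kb from genes made up 406.3 Mb, or 35.9% of the 1131.1 Mb of CM sequence, and held 11.4 members per Mb, against 24.9 shared regions per Mb in the rest. Members covered 0.757% of that space, while nearer shared regions covered 1.74% of the rest. In peaks of the single libraries, the density in the gene-free space was 0.502, 0.490 and 0.480 times that of the rest (mean log2 ratio -1.03 ± 0.03, SD, n = 3). The exact two-sided sign-flip test over the 3 libraries gave p = 0.25, the smallest value that 3 libraries allow, as it did for each comparison below whose difference had the same sign in all 3 libraries (Benjamini-Hochberg adjusted p = 0.279 over 29 comparisons).

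**Figure D1:**
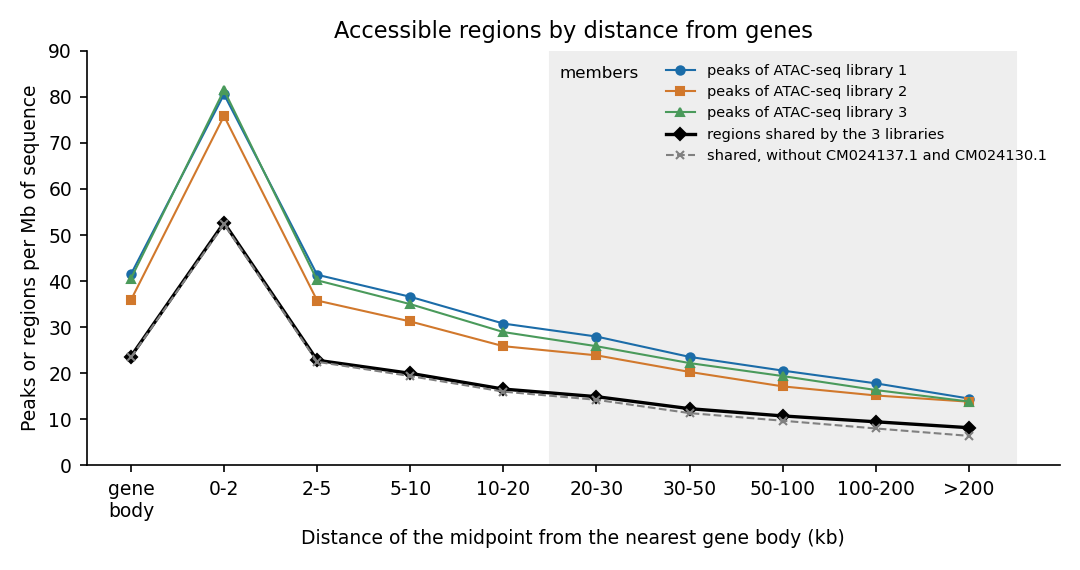
Peaks per Mb of each ATAC-seq library and shared regions per Mb (vertical axis) by the distance of their midpoint from the nearest gene body (horizontal axis, kb), with the bins of the members shaded. The shared regions fell to 8.17 per Mb beyond 200 kb, against 52.7 per Mb within 2 kb of genes, and the dashed line leaves out the pair of sequences with the most members per Mb.

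The members lay 20.0 to 549.8 kb from the nearest gene body, with a median of 49.1 kb and quartiles of 30.6 and 87.3 kb. Within 20 to 30 kb lay 1106 members (23.9%), and 939 lay beyond 100 kb. The farthest was CM024165.1:8004372-8005680, 549.8 kb from evm.TU.CM024165.1.308, with fold enrichments of 7.04, 4.85 and 7.03 in libraries 1, 2 and 3. The next were CM024165.1:7984477-7985126 (4.68, 5.20 and 7.76), at 529.9 kb from the same gene, and CM024140.1:6777799-6778403 (8.66, 6.51 and 15.1), at 501.1 kb from evm.TU.CM024140.1.133. The first of these genes was listed at 0 FPKM in all 3 RNA-seq libraries, and the second had 4.73, 3.67 and 0.974 FPKM. FPKM is the number of RNA fragments scaled by exon length and by a total for the library. In the deposited values that total was 0.573, 0.514 and 1.43 times the fragments in genes of RNA-seq libraries 1, 2 and 3. A given FPKM therefore stands for more fragments in library 3.

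The border of 20 kb separated regions with like values. Just inside it were CM024130.1:6423411-6423912 at 20003 bp, CM024117.1:7904718-7905356 at 20004 bp and CM024128.1:7652516-7653386 at 20006 bp, with mean fold enrichments of 3.07, 5.49 and 4.18. Just outside it were CM024135.1:54183-55274 at 19991 bp, CM024142.1:16348025-16348794 at 19980 bp and CM024148.1:14444254-14444566 at 19979 bp, with mean fold enrichments of 7.07, 5.16 and 4.06. The 123 members between 20 and 21 kb had median folds of 4.92, 4.96 and 5.17, and the 122 shared regions between 19 and 20 kb had 4.93, 5.58 and 4.97 in libraries 1, 2 and 3.

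In fold enrichment the members were close to the other shared regions, and small differences depended on the regions and summits counted. Their q-values were weaker, as given at the end of the paragraph. Fold enrichment is the ratio of cuts at a summit to the local background, and a region's value in a library was that of its strongest summit. The median fold of the members was 5.0, 5.27 and 5.13 in libraries 1, 2 and 3, against 4.89, 5.17 and 5.17 for the other shared regions. The mean log2 difference was 0.02 ± 0.02 (SD, n = 3), higher in libraries 1 and 2 and lower in library 3 (exact sign-flip test, p = 0.5, adjusted p = 0.518). It was higher in all 3 libraries, by 0.07 ± 0.02 without CM024137.1 and CM024130.1 (the sequences densest in members), by 0.06 ± 0.03 at a q-value of 1e-05 or less, by 0.04 ± 0.03 with the mean over a region's summits and by 0.03 ± 0.04 for members over 50 kb from genes (SD, n = 3 each; exact sign-flip test, p = 0.25). Shared regions within 2 kb of a transcription start had higher medians than the members in every library, at 5.15, 5.41 and 5.57, a log2 difference of members minus starts of -0.07 ± 0.05 (SD, n = 3). Under the same 4 alternatives the sign no longer held in every library, with differences of -0.01 ± 0.04, -0.01 ± 0.05, -0.0084 ± 0.038 and -0.05 ± 0.05 (SD, n = 3 each). Against intergenic regions 2 to 20 kb from a gene, with medians of 4.79, 5.0 and 4.94, the members were higher in every library, by 0.06 ± 0.01 on the log2 scale (SD, n = 3), or by 0.03 ± 0.01 with annotated genes alone. Against regions in gene bodies over 2 kb from a start, with 4.67, 4.97 and 4.92, they were higher by 0.08 ± 0.02 (SD, n = 3). In the main comparison each of these 3 differences reached p = 0.25 in the exact sign-flip test. Among the members themselves, the medians were 4.92, 5.22 and 5.06 at 20 to 30 kb and 5.37, 5.44 and 5.42 beyond 200 kb, where 226 members lay. The median −log10 q-value of the members was 13.4, 11.7 and 14.4 in libraries 1, 2 and 3. It was 14.9, 13.2 and 17.9 in the other shared regions, and 14.4, 12.2 and 16.0 in intergenic regions 2 to 20 kb from a gene. Regions at starts and in gene bodies also had higher values than the members in every library. This difference in q-value was not tested.

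The members were narrower than regions at promoters and had fewer summits. Their median peak width was 459, 416 and 481 bp in libraries 1, 2 and 3, against 476, 444 and 514 bp for the other shared regions, a ratio of 0.946 (log2 difference -0.08 ± 0.02, SD, n = 3). Regions within 2 kb of a start were 539, 503 and 597 bp wide, which put the members at 0.828 times their width. Members were close in width to intergenic regions 2 to 20 kb from a gene (log2 differences of 0.05, 0.0035 and 0.05 in libraries 1, 2 and 3), with a mean of 0.03 ± 0.03 (SD, n = 3). The mean number of summits per region was 1.45, 1.36 and 1.48 in members, against 1.56, 1.48 and 1.62 in the other shared regions and 1.70, 1.62 and 1.78 at starts. The difference from the other shared regions was -0.12 ± 0.01 summits (SD, n = 3), lower in every library. In 55.6% of the members each library had 1 summit, against 48.0% of the other shared regions and 38.2% at starts. Intergenic regions 2 to 20 kb from a gene were close to the members. They had 1 summit in each library in 54.0%, and means of 1.48, 1.39 and 1.51 summits in libraries 1, 2 and 3. Regions in gene bodies over 2 kb from a start had 1 summit in each library in 54.2%. After merging, the members were 200 to 3204 bp wide with a median of 579 bp, and together covered 3.07 Mb.

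**Figure D2:**
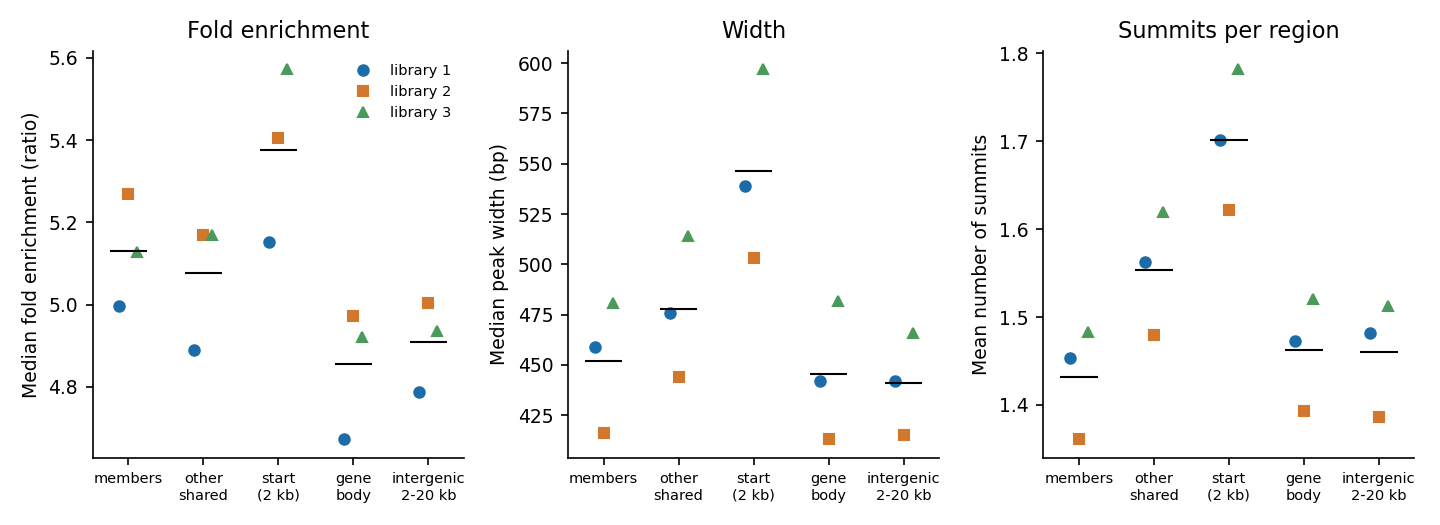
Median fold enrichment (ratio), median peak width (bp) and mean number of summits of shared regions in each ATAC-seq library, for members, all other shared regions, and the nearer regions by place, with the mean of the libraries as a line. The vertical axes do not start at 0. Members had 459, 416 and 481 bp in width, below the 539, 503 and 597 bp at starts.

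The strongest summit of a member was placed less tightly by the 3 libraries than that of a nearer region. The positions spanned a median of 43 bp over the 3 libraries in members, against 34 bp in the other shared regions and 30 bp at starts, and 54.9% of members, against 61.6% of the other shared regions, had them within 50 bp. The rank order of fold was shared between libraries. Spearman's rho over the 4623 members was 0.739 for libraries 1 and 2, 0.851 for libraries 1 and 3 and 0.766 for libraries 2 and 3, against 0.773, 0.874 and 0.788 over the other shared regions. These describe regions, which are not independent replicates. Higher members were also wider, with a rho of fold and width of 0.344, 0.408 and 0.351 in libraries 1, 2 and 3. The median coefficient of variation of fold over the libraries was 14.6% in members and 13.7% in the other shared regions.

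Most of the highest peaks lay near genes, but members reached a high fold at a greater rate than the other shared regions as a whole. A fold of 10 or more in all 3 libraries was reached by 5.97% of the 4623 members (95% Wilson interval 5.32 to 6.69%), against 874 of the other shared regions (4.84%, 4.54 to 5.16%) and 5.07% of all shared regions on the CM sequences. Regions within 2 kb of a start reached it at nearly the rate of the members, with 408 of 6917 (5.90%, 5.37 to 6.48%). At a fold of 20 or more in all 3 libraries stood 13 members (0.281%, 0.164 to 0.480%), against 15 of the other 18051 regions (0.0831%, 0.0504 to 0.137%). Of these 15, 2 lay at starts and 8 were intergenic, 2 to 20 kb from a gene. The 8 made up 0.171% of the 4680 such regions (0.0866 to 0.337%), an interval that overlaps that of the members. These intervals cover counting error only. In single libraries, 8.59%, 11.4% and 10.1% of members had a fold of 10 or more, against 7.18%, 8.55% and 8.90% of the other shared regions in libraries 1, 2 and 3. The difference was 1.81 ± 0.92 percentage points (SD, n = 3) and positive in each library (exact sign-flip test, p = 0.25). It was 3.20 ± 1.31 points at a q-value of 1e-05 or less and 2.74 ± 1.15 without CM024137.1 and CM024130.1 (SD, n = 3 each).

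The 13 members at a fold of 20 or more were narrow, with a median merged width of 495 bp, lay on 11 sequences, at 25.3 to 138.2 kb from genes, and none had another member within 10 kb. Their strongest summits differed by at most 30 bp between the libraries. The highest was CM024133.1:10645707-10646024, with folds of 46.8, 47.7 and 47.0 and 1 summit in each library, within 4 bp. It lay 60.1 kb upstream of evm.TU.CM024133.1.314, a gene with 2.08, 2.18 and 6.47 FPKM. The next, CM024133.1:10658293-10658723, had folds of 42.2, 44.0 and 43.5 and lay 12268 bp away from it on the same side of the same gene. Both stood far above the upper quartile of the members, which was 7.02, 7.44 and 7.24 in libraries 1, 2 and 3.

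The other high members lay on other sequences. CM024120.1:14296054-14296374 had folds of 32.4, 30.9 and 43.1 and lay 41.3 kb upstream of evm.TU.CM024120.1.491, which was listed at 0 FPKM in all 3 libraries. CM024134.1:17109047-17109385 had 33.3, 32.6 and 35.1 and lay 79.0 kb downstream of evm.TU.CM024134.1.376, which had 52.9, 66.4 and 47.0 FPKM. CM024130.1:2102783-2103277 had 30.3, 31.3 and 32.2 and lay 25.3 kb downstream of a gene model added by the authors at CM024130.1:2128568-2128925, with 0, 0 and 0.751 FPKM. The 5 highest members thus had neighbours both with and without detected RNA.

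None of the 3 widest members exceeded the upper quartile of the members in fold. CM024103.1:5301252-5304455 was 3204 bp wide, with folds of 4.65, 5.37 and 4.02, 4 or 5 summits per library and strongest summits 2263 bp apart, and lay 30.9 kb upstream of evm.TU.CM024103.1.229 (17.8, 23.6 and 19 FPKM). CM024134.1:21557255-21560354 was 3100 bp wide (folds of 3.64, 3.65 and 3.69, below the members' lower quartiles of 3.75, 3.97 and 3.79). It lay 98.7 kb downstream of evm.TU.CM024134.1.495, which was listed at 0 FPKM in all 3 libraries. CM024156.1:16835230-16838305 was 3076 bp wide and held 9, 9 and 10 summits, with folds of 4.5, 5.73 and 4.71.

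Members were unevenly spaced, which the rule brings about in part. It leaves out regions within 20 kb of genes, so gaps that span genes are long and short gaps fall inside a gene-free interval. The gap to the next member had a median of 17.4 kb and quartiles of 4.77 and 168.4 kb, so that short gaps and very long ones stood side by side. The other shared regions had a median gap of 12.8 kb and quartiles of 3.72 and 45.0 kb. Up to 10 kb were 40.4% of the gaps between members and 44.6% of those between the other shared regions. The shared region nearest to a member was itself a member in 81.2% of cases, at a median of 6.08 kb. The rule bears on this share too, since members lie over 20 kb from the gene bodies that the other shared regions are near. When members at gaps of up to 10 kb were joined, 2763 members (59.8%) fell into 923 clusters of 2 or more and 1860 (40.2%) stood alone. Clusters of 5 or more numbered 113 and held 723 members (15.6%). In the single libraries' own far peaks, 69.5%, 68.3% and 71.7% were in such clusters. Cluster shares were not computed for the other shared regions.

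**Figure D3:**
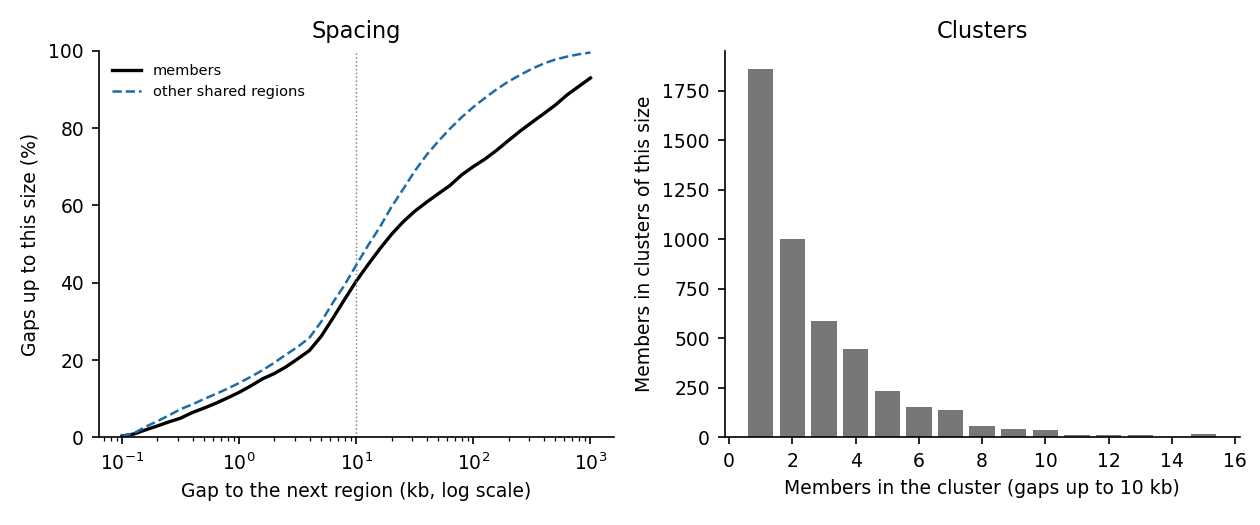
Left, the percentage of gaps between neighbouring regions (vertical axis) up to a given size (horizontal axis, kb, log scale) for members and for the other shared regions, with 10 kb dotted. Right, the number of members in clusters of each size, from 1860 alone to 15 in 1 cluster.

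Windows of 50 kb cut from the gene-free space showed the same unevenness. Of 6204 windows, 75.1% held no member, and the 6.95% with 3 or more held 57.4% of the members in windows. The variance of the count was 2.97 times its mean, where counts placed independently would give 1, and 2.92 times without CM024137.1 and CM024130.1, the sequences with the most members per Mb. No such value was computed for the other shared regions, so the unevenness is not shown to be particular to members.

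The largest cluster was CM024162.1:1341402-1411209, with 15 members over 69.8 kb at 29.0 to 98.2 kb from evm.TU.CM024162.1.35. Its median folds were 5.92, 6.24 and 6.25 in libraries 1, 2 and 3 and its highest 12.4, 13.7 and 14.0, which put its median above the 4.42, 4.75 and 4.55 of all members in clusters of 5 or more. The next, on CM024145.1, had 13 members over 64.3 kb and median folds of 3.06, 4.21 and 2.97. Members that stood alone were higher than those in clusters. Their median folds were 5.51, 5.80 and 5.64, against 4.42, 4.75 and 4.55 for members in clusters of 5 or more, a log2 difference of 0.31 ± 0.01 (SD, n = 3) in the same direction in every library (exact sign-flip test, p = 0.25). Clusters of 2 to 4 lay between, at 4.84, 5.01 and 4.94. Merged widths differed little, with medians of 572.5 bp alone and 582 bp in clusters of 5 or more.

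The gene-free space consisted of 4391 intervals over 40 kb long between neighbouring genes, or over 20 kb long at a sequence end, and 1468 of them (33.4%) held all the members. Intervals with 10 or more members numbered 93 and held 1500 members (32.4%). The interval with the most was CM024137.1:18865324-19383293, 518.0 kb long, with 56 members and median folds of 4.17, 4.12 and 4.13. Both genes at its ends, an added model at CM024137.1:18857200-18865323 and evm.TU.CM024137.1.494, were listed at 0 FPKM in all 3 libraries. Short intervals were denser than long ones. Of 4 equal groups of intervals by the length of their part over 20 kb from genes, the shortest (up to 19.5 kb) held 18.7 members per Mb of it, and the next held 16.5, 13.4 and 9.76 members per Mb.

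The direction of the bordering genes made little difference. Intervals between genes pointing away from each other held 11.4 members per Mb, those between genes on the same strand 11.4 and those between genes pointing towards each other 10.9. Upstream of their nearest gene lay 2726 members (59.0%), where 57.5% of the gene-free space over 20 kb from genes was on the upstream side. The 50 intervals at sequence ends held 73 members, or 17.7 per Mb. The length of a sequence was taken as its largest listed coordinate. Beyond the last gene such an interval therefore exists only where a peak lies, and it stops at the last peak. Their density is raised in part by this definition and cannot be set against that of the other intervals.

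Every one of the 72 CM sequences had members, from 6 to 478 with a median of 49.5. Per Mb of gene-free space over 20 kb from genes the median sequence had 9.65 members, with quartiles of 7.52 and 13.3. CM024130.1 had the most at 35.3 per Mb (179 members), followed by CM024137.1 at 27.8 per Mb (478 members, 10.3% of all) and CM024106.1 at 21.4 per Mb (10 members in 0.468 Mb). The fewest were on CM024108.1 at 1.71 per Mb (6 members), CM024154.1 at 3.42 per Mb (12 members) and CM024111.1 at 3.54 per Mb (28 members). The order was largely shared by the libraries. In each library's own far peaks CM024130.1 and CM024137.1 ranked first and second, and CM024111.1, CM024154.1 and CM024108.1 took ranks 69 to 72. CM024106.1 ranked lower there than in members, at 10, 9 and 8 in libraries 1, 2 and 3. Over the 72 sequences, the far peaks per Mb of pairs of libraries had a Spearman's rho of 0.930 to 0.953.

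In all 72 sequences the members were sparser per Mb of gene-free space than the nearer shared regions per Mb of the rest. Sequences rich in one tended to be rich in the other (Spearman's rho 0.462, Pearson's r 0.571 over 72 sequences, and 0.418 and 0.523 over the 70 without CM024130.1 and CM024137.1). For genes per Mb and members per Mb, rho was 0.046 and r 0.084 over all 72, and 0.123 and 0.240 over the 70. These correlations describe sequences that share the same 3 libraries.

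**Figure D4:**
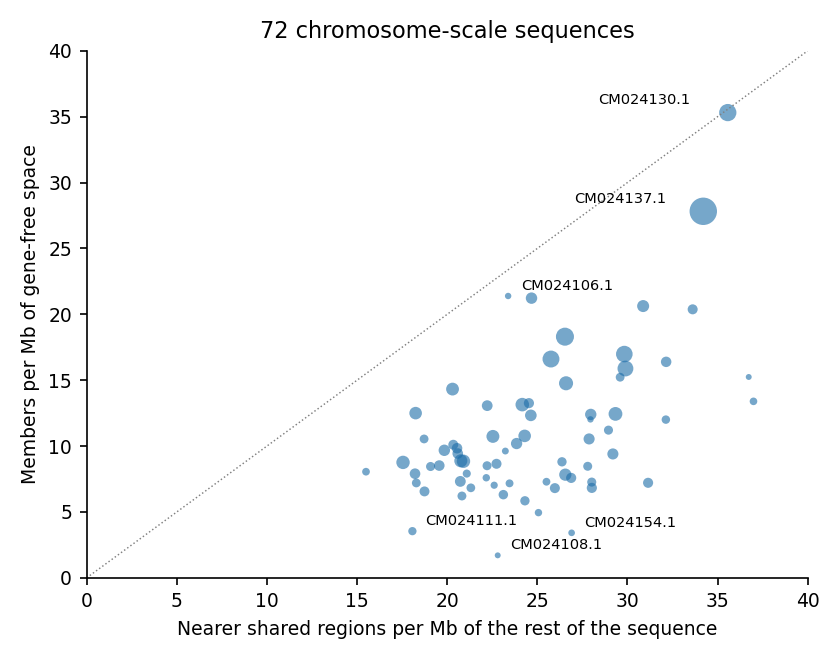
Members per Mb of gene-free space (vertical axis) against the nearer shared regions per Mb of the rest (horizontal axis) for the CM sequences. The point area grows with the number of members, and the dotted line marks equal density. CM024138.1 and CM024114.1, at 42.4 and 42.3 nearer shared regions per Mb of the rest, lie beyond the end of the horizontal axis and are not shown. All points lie below the line, CM024130.1 (35.3 against 35.6 per Mb) and CM024137.1 (27.8 against 34.2 per Mb) nearest to the top.

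The excess on the densest sequences lay in one part of each, and the borders of these parts were set after the positions were seen. On CM024137.1, the 14.5 Mb beyond 17 Mb held 438 members, 42.9 per Mb of gene-free space, against 40 members and 5.73 per Mb in the first 17 Mb. The nearer shared regions were also denser there, at 56.6 against 24.7 per Mb of the rest, while genes were fewer, at 7.67 against 18.0 per Mb. Of the genes beyond 17 Mb, 73.9% were listed at 0 FPKM in all 3 RNA-seq libraries, against 26.1% of those in the first 17 Mb. The far peaks of single libraries showed the same split, with 84.9, 69.0 and 68.3 per Mb beyond 17 Mb, against 9.74, 7.74 and 9.17 per Mb before it, in libraries 1, 2 and 3.

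CM024130.1 was split in a like manner. Beyond 4 Mb it held 166 members, 42.4 per Mb of gene-free space, against 13 members and 11.2 per Mb in the first 4 Mb, and 70.4% of its genes there were listed at 0 FPKM, against 43.9%. The members on both sequences together, 657 or 14.2% of all in 5.48% of the gene-free space, were lower than elsewhere, with median folds of 4.38, 4.30 and 4.05 in libraries 1, 2 and 3, against 5.15, 5.52 and 5.37 for the 3966 members on the other sequences. Only 2.13% of them reached a fold of 10 in all 3 libraries, against 6.61% of the members elsewhere. Without both sequences, members numbered 10.3 per Mb of gene-free space.

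The nearest genes of the members were 1830 distinct genes, of which 337 (18.4%) were added models, against 24.9% of the other genes on the CM sequences. For 94.6% of the members the nearest gene body and the nearest transcription start belonged to the same gene. A single member was assigned to 971 of the genes, and 238 genes had 5 or more members and took 44.1% of all members. An FPKM of 1 or more in all 3 RNA-seq libraries was found for 609 of the nearest genes (33.3%), where 35.0% of all 27292 genes on the CM sequences had it. Listed at 0 in all 3 libraries were 637 of the nearest genes (34.8%), where 26.7% of all genes were. As a group the neighbours of the members were thus no more often expressed than genes in general.

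Set against other genes at the edge of large gene-free intervals, the picture differed. The 4563 genes that bordered such an interval with no member in it had an FPKM of 1 or more less often. In RNA-seq libraries 1, 2 and 3, 41.3%, 40.9% and 37.7% of the genes nearest to a member had an FPKM of 1 or more, against 27.3%, 26.9% and 24.5% of the bordering genes without a member, a difference of 13.7 ± 0.45 percentage points (SD, n = 3). In the median of log2(FPKM + 1), the genes nearest to a member were higher by 0.33 ± 0.03 (SD, n = 3), with medians of 0.288, 0.230 and 0.255 FPKM, against 0 FPKM in each library for the bordering genes. Both differences had the same sign in every library (exact sign-flip test, p = 0.25). The size of the log2 difference depended on the choices made, at 1.84 ± 0.12 with a pseudocount of 0.1 and 0.79 ± 0.23 among genes above 0 in a library. For members over 50 kb from genes it was 0.09 ± 0.09 and not of the same sign in every library (SD, n = 3 each; exact sign-flip test, p = 0.5). Against all other genes on the CM sequences, of which 44.4%, 42.3% and 43.5% had an FPKM of 1 or more, the genes nearest to a member were lower in every library, with a difference of -3.46 ± 2.23 percentage points, and lower in the median of log2(FPKM + 1), with a difference of -0.31 ± 0.03 (SD, n = 3 each). Both directions turned when genes listed at 0 in all libraries were left out (2.52 ± 3.34 points, and 0.27 ± 0.31 on the log2 scale). The difference in points also lost its shared sign on each library's own fragments (-2.15 ± 4.15), at a q-value of 1e-05 or less (-0.377 ± 2.26), without CM024137.1 and CM024130.1 (-1.34 ± 2.40) and with each member's nearest gene counted (0.122 ± 2.66, SD, n = 3 each).

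The excess over bordering genes was present at every interval length. In the shortest of the 4 groups of intervals, genes bordering one with a member had an FPKM of 1 or more by 20.8 ± 2.05 percentage points more often than those bordering one without, and in the following groups by 18.5 ± 0.43, 11.7 ± 0.40 and 10.8 ± 0.84 points (SD, n = 3 each). With the number of members in the interval the share was uneven. It was 26.5%, 26.0% and 23.4% in libraries 1, 2 and 3 with no member, 28.6%, 28.6% and 26.2% with 1 member, 42.9%, 42.0% and 39.0% with 2 to 4, 50.5%, 50.2% and 44.4% with 5 to 9, and 48.3%, 47.8% and 43.9% with 10 or more. Over all interval lengths together, genes bordering an interval with a single member were close to those with none. The number of members was not split by interval length.

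**Figure D5:**
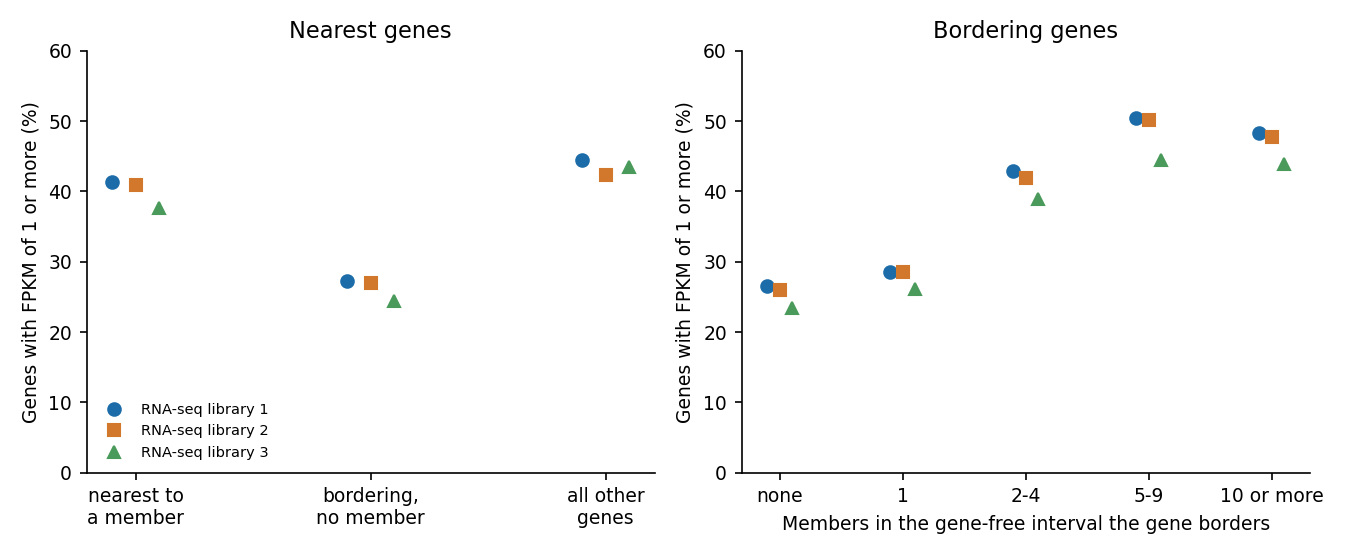
Percentage of genes with an FPKM of 1 or more in each RNA-seq library (vertical axis). Left, genes nearest to a member, genes bordering a large gene-free interval without a member, and all other genes on the CM sequences. Right, bordering genes by the number of members in the interval, with 26.5%, 26.0% and 23.4% at none and 50.5%, 50.2% and 44.4% at 5 to 9.

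Open chromatin at the gene's own start moved with this difference. A shared region lay within 2 kb of the start in 29.6% of the genes nearest to a member, against 16.3% of the bordering genes without one and 24.8% of all other genes. Among genes with such a region, 65.1%, 66.2% and 62.2% of those nearest to a member had an FPKM of 1 or more, against 62.7%, 59.8% and 59.2% of the bordering genes, a difference of 3.96 ± 2.13 percentage points (SD, n = 3). Among genes without one, the shares were 31.3%, 30.3% and 27.4%, against 20.4%, 20.5% and 17.7%, a difference of 10.1 ± 0.67 points (SD, n = 3). The median of both groups without such a region was 0 FPKM in every library.

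The 10 nearest genes with the highest FPKM had 1 to 4 members each, at folds common among members. The highest was evm.TU.CM024117.1.149, with 7525, 28006 and 6858 FPKM and 2 members at 28.1 and 29.1 kb, with highest folds of 4.05, 6.81 and 4.70. It was followed by evm.TU.CM024098.1.339, with 6275, 11308 and 1863 FPKM and 1 member at 29.7 kb with folds of 6.48, 13.9 and 7.19. Both genes were highest in RNA-seq library 2. The third, evm.TU.CM024114.1.113, had 4309, 2464 and 1203 FPKM and 4 members at 21.8 to 29.8 kb, none above a fold of 6.05 in any library.

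The remaining genes of the 10 ran in mean FPKM from 2496 for evm.TU.CM024123.1.205 to 1560 for evm.TU.CM024134.1.395. Between them stood evm.TU.CM024138.1.88 (2113), evm.TU.CM024164.1.303 (2073), evm.TU.CM024158.1.527 (1823), evm.TU.CM024136.1.421 (1812) and evm.TU.CM024112.1.505 (1802). The libraries' ranges of neighbours in this order overlapped, as for evm.TU.CM024138.1.88 with 2758, 3291 and 291.4 FPKM. Part of that spread lay in the scaling of library 3, whose FPKM refer to a total 1.43 times its fragments in genes, against 0.573 and 0.514 times in libraries 1 and 2. For evm.TU.CM024158.1.527, 2045, 2498 and 927.3 FPKM came from 13269, 15435 and 16517 fragments, or 1172, 1284 and 1328 FPKM when scaled to the fragments that the library had in genes. Of the 10, all but evm.TU.CM024138.1.88 and evm.TU.CM024158.1.527 also had a shared region within 2 kb of their start. The files give no names or functions for these genes.

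Most of the genes with the most members had no detected RNA or a single fragment. The first was the added model at CM024137.1:18857200-18865323 with 36 members, followed by evm.TU.CM024137.1.532 with 28, evm.TU.CM024137.1.494 with 26, evm.TU.CM024148.1.81 with 25 and an added model at CM024137.1:23491516-23499627 with 24. All but evm.TU.CM024148.1.81 lay on CM024137.1 beyond 17 Mb. Among those, evm.TU.CM024137.1.532 had 1 fragment in RNA-seq library 2 and none in the other libraries, and the other genes were listed at 0 in all 3. The exception, evm.TU.CM024148.1.81, had 42.5, 37.5 and 40.2 FPKM from 341, 286 and 885 fragments. Its 25 members lay 109.2 to 440.6 kb away, with median folds of 4.98, 4.73 and 4.90.

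The genes that the paper gives by identifier were looked up among the nearest genes. Of 13 looked up, 7 were nearest to a member, where 6.71% of all genes on the CM sequences were. The paper reports these genes partly from the same libraries, so the count is a description. It took them from genes with a differential peak, and peaks outside promoters were given to the gene with the nearest start at any distance. The genes were thus selected in part for peaks nearest to them, and their share cannot be set against that of all genes. SSTR2 (evm.TU.CM024152.1.288), named after the vertebrate receptor for the peptide hormone somatostatin, had 6 members, all upstream, at 24.2 to 119.8 kb. The closest, CM024152.1:8686355-8687021, had folds of 9.0, 10.2 and 8.17, and another at 112.0 kb, CM024152.1:8774074-8775263, had 6.90, 8.69 and 11.7. The gene itself had 17.3, 19.6 and 7.35 FPKM. All 6 members lay over 20 kb out on the same side, and the other ones had mean folds of 3.52 to 8.19.

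The gene moody (evm.TU.CM024100.1.415), whose Drosophila namesake encodes a G protein-coupled receptor of the glia that form the blood-brain barrier, had 4 members upstream at 24.1 to 54.8 kb. The highest in mean fold was CM024100.1:16922206-16922651 with 8.20, 10.1 and 8.56, and the closest, CM024100.1:16891555-16892577, had 10.1, 9.19 and 7.07. Its FPKM was 33.2, 9.37 and 7.38. HTR4 (evm.TU.CM024104.1.157), named after a serotonin receptor, had 1 member 22.0 kb upstream, CM024104.1:6300820-6302006, with folds of 10, 8.61 and 11.5, and 18.1, 20.5 and 1.24 FPKM. The HTR4 member and the highest one near moody were above the upper quartile of all members in every library.

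Lower members lay near the other genes. FMRFaR (evm.TU.CM024127.1.244), named after the receptor of FMRFamide neuropeptides in Drosophila, had 2 members 63.2 and 64.9 kb upstream, with mean folds of 4.04 and 4.06, and 42.0, 52.4 and 12.1 FPKM. Kpna6 (evm.TU.CM024137.1.63), named after an importin that carries proteins into the nucleus, had 3 members downstream at 21.8 to 39.2 kb, with mean folds of 5.20, 7.23 and 4.94, and 3.71, 4.55 and 2.55 FPKM. It lay in the first 17 Mb of CM024137.1, outside the dense part. The gene sky (evm.TU.CM024136.1.65 joined with evm.TU.CM024136.1.66) had 1 member 45.6 kb upstream, with folds of 3.75, 8.07 and 5.31, and 3.75, 4.67 and 2.11 FPKM.

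An unnamed gene among these, evm.TU.CM024125.1.103, had the highest expression at 359.2, 453.6 and 98.1 FPKM and 4 members upstream within a single cluster at 20.7 to 33.3 kb. The highest of them, CM024125.1:3493029-3493383, had folds of 6.27, 10.7 and 5.73. In all of these genes except Kpna6 the members lay upstream. RNA-seq library 3 was the lowest in the deposited FPKM for each of the 7 genes. On each library's own fragments in genes it was the lowest for 3 of them (HTR4, FMRFaR and evm.TU.CM024125.1.103), in the middle for moody, and the highest for SSTR2, Kpna6 and sky. SSTR2, for example, then had 9.90, 10.1 and 10.5 FPKM from 113, 122 and 132 fragments.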

How the data were processed

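Libraries for ATAC-seq and RNA-seq were made from leg muscle of 3 crabs. Per the paper, ATAC-seq reads were trimmed (skewer 0.2.2) and aligned (BWA) to the E. sinensis genome, with peaks called per library in MACS2 2.1.2. A shift of reads for the transposase is not given in the sources used here. In the deposited peak lists, a summit has a fold enrichment over its local background (a ratio) and a q-value as −log10, at most 0.05 when converted. The deposited FPKM of 21314 annotated and 7357 added genes came from Trimmomatic 0.39, Hisat2 2.0.5 and FeatureCounts 1.5.0-p3, run by the authors.

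Merging, distances and counts were computed in Python 3.11.15 (numpy 2.4.6, pandas 2.3.3, scipy 1.17.1) and figures drawn in matplotlib 3.10.9. The length of a sequence was its largest listed coordinate. Each nearest gene entered once, and FPKM were compared as log2(FPKM + 1). Multiplying FPKM by exon length and dividing by a constant for each library gave the fragments, 100% of them whole within 0.05. The fragments were thus worked back from the FPKM, and were not read from a list of counts. Differences per library were tested by an exact two-sided sign-flip permutation test. On simulated data, 20 of 20 sets of peaks and genes gave the planted regions, distances and clusters.

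The members and lists were chosen with earlier results of these data known. Regions named are the 5 highest, 3 widest and 3 farthest members, 3 on each side of the border, the largest cluster and interval, and the 3 sequences at each end of the density, with the second cluster named after its values were seen. Genes named are the 10 highest in FPKM, the 5 with the most members and those identified in the paper, 1 of them left out. Alternatives covered the q-value, overlap and distance rules, the gene set, the joining distance, the pseudocount, filters and leaving out each library. Those without the densest sequences, on each library's own fragments, by interval length and by open starts were added after seeing the data.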

Additional observations from a re-analysis of the deposited data

How the results depend on the processing

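Of 187 values recomputed under the alternatives, 182 kept their direction. The 187 include counts, gaps, cluster shares and densities, which are always positive and could not turn. Values that moved in size without turning were counted as kept, so the tally is no measure of stability. With annotated genes alone, the log2 difference in fold between members and the other shared regions was -0.0014, against 0.02 in the main comparison and 0.07 without CM024137.1 and CM024130.1. Against all other genes, the nearest genes were higher by 0.27 on the log2(FPKM + 1) scale and by 2.52 percentage points once genes at 0 in all libraries were left out, and higher by 0.122 points when each member's nearest gene was counted. Alternatives that gave or ended a sign shared by all 3 libraries in fold or FPKM stand with the results. Among genes with no shared region at the start, the difference in median log2(FPKM + 1) from bordering genes was 0, since both medians were 0. The cause of the first of these turns was not tested. The number of members was 2276 at over 50 kb, and 5226 to 6022 without 1 library. Members per Mb of gene-free space, 11.4 in the main count, were 8.05 at a q-value of 1e-05 or less, 12.4 at over 10 kb, 9.94 at over 50 kb, 12.7 with annotated genes alone, 10.3 without CM024137.1 and CM024130.1, 12.9 to 14.8 without 1 library, and 4.09 per Mb of whole sequence. The median gap was 25.1 kb at a q-value of 1e-05 or less and 12.6 to 15.6 kb without 1 library. At gaps of up to 5 kb and 20 kb, 43.7% and 70.9% of members were in clusters. The excess of members over the other shared regions in the span of summit positions, 9 bp, was 5 bp at a q-value of 1e-05 or less and without CM024137.1 and CM024130.1, 10 bp with intervals up to 100 bp apart merged and at over 50 kb, 8 bp at over 10 kb, 11 bp with annotated genes alone, and 5 to 6 bp without 1 library. Without 1 library, the excess of members at a fold of 10 or more was 0.879 to 1.69 points and the log2 fold difference from other shared regions 0.00076 to 0.02. No paired analysis was possible because no groups of libraries were compared: each difference was taken within a library, and the assays of 1 crab, which are in different units, were not set against each other. Peak height depends on depth, which the lists do not give, and distances depend on the gene models.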
